A study of Rattus norvegicus with 12 samples.

Results

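Microglia are the resident macrophages of the brain, and the genes followed here are ones by which they and their immune state are read in tissue RNA. Aif1 encodes IBA1, a calcium-binding protein of microglia and other macrophages. Itgam encodes CD11b, the alpha chain of complement receptor 3 on myeloid cells. Ptprc encodes CD45, the tyrosine phosphatase on the surface of leukocytes. Cd74 encodes the invariant chain, which guides MHC class II molecules to the compartments where they take up peptide. B2m encodes beta-2-microglobulin, the light chain that MHC class I molecules need to reach the cell surface. Il1b encodes the inflammatory cytokine interleukin-1 beta. In the preoptic area, a part of the ventral forebrain with lasting sex differences, neonatal microglia are known to take part in masculinization through prostaglandin signalling. These 6 genes were chosen for their known roles, but with earlier results of these data known. They were taken by Ensembl identifier from the 29516 genes in the files, Aif1 as ENSRNOG00000000853, Itgam as ENSRNOG00000019728, Ptprc as ENSRNOG00000000655, Cd74 as ENSRNOG00000018735, B2m as ENSRNOG00000017123 and Il1b as ENSRNOG00000004649.

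RNA came from the preoptic area of rats collected on postnatal day 2. Females and males had received vehicle, saline holding 0.1% DNMSO (spelled so in the labels), or zebularine, a nucleoside that blocks the enzymes of DNA methylation, on postnatal days 0 and 1. Each sex was thus represented by 3 vehicle and 3 zebularine libraries, 12 in all. The labels give no strain, dose or route, and do not tie libraries to animals. The p-values below therefore reflect only how far these libraries spread, part of which may be technical. The files carry identifiers without symbols, and the RefSeq gene table used here matched 0 of them. The symbols are those that the list of 6 genes pairs with its identifiers, and markers of neurons, astrocytes, blood or other macrophages were not analysed here, so the labelled tissue was not checked against its markers.

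Reads assigned to genes ran from 15851598 to 30474857 per library. Over all tested genes, 1 library, zebularine female replicate 3, lay far from the other 11, with a score of 50.4 on the first principal component against a range from -11.6 to 9.49. The main limma tests and the permutation tests of zebularine that include it are given below also without it. Ratios to Aif1 within a library and limma-voom results are given with it only.

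Promoter sequence is shown first, because zebularine acts on the enzymes that methylate the C of CG dinucleotides and because the genes below differ in how many of these they hold. RefSeq (assembly GRCr8) gave a window from 250 bases before to 50 after the start for 5 of the 6 genes, with none for Aif1. B2m had 18 CG in its 300-base window, more than 72.5% of the 33469 RefSeq promoters had. The other windows were poorer, with 6 CG for Ptprc, 4 for Cd74, 3 for Itgam and 2 for Il1b, where the median of all promoters was 7. The stretch of each window that lies upstream of the whole annotated gene is printed 5′ to 3′ on the gene's strand, with CG in capitals, for a myeloid gene, the leukocyte gene and both antigen presentation genes.
Itgam, chr1:192089342-192089495, plus strand: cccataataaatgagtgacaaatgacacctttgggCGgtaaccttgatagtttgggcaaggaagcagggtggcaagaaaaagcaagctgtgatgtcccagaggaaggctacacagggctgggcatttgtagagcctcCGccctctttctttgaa
Ptprc, chr13:52259811-52259996, minus strand: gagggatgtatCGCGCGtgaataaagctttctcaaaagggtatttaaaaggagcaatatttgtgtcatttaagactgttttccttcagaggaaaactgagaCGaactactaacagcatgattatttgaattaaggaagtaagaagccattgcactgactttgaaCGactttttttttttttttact
Cd74, chr18:56526956-56527070, plus strand: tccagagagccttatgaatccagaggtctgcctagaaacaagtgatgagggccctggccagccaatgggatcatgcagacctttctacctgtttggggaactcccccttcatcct
B2m, chr3:129549080-129549235, plus strand: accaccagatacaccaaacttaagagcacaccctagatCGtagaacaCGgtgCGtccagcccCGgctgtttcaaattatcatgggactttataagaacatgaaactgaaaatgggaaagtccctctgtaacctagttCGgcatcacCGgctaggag
The printed stretches hold 2 CG for Itgam, 5 for Ptprc, 0 for Cd74 and 6 for B2m. The letters AGGAAG, the core bound by the myeloid factor PU.1, were searched on both strands of the whole windows. They occurred 3 times for Itgam, 2 times for Ptprc, 1 time for Il1b and 0 times for Cd74 and B2m, and 34.5% of all promoters hold them at least 1 time. The letters CCAAT, the box bound by NF-Y, which is part of the regulatory module of MHC genes, occurred 1 time for Cd74, 1 time for B2m and 0 times for Itgam, Ptprc and Il1b, against 37.5% of all promoters. These matches describe the letters only, and DNA methylation was not measured in these libraries.

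Under zebularine, Aif1, Itgam, Ptprc, Cd74 and B2m were each higher in all 6 treated libraries than in any of the 6 vehicle libraries, in both sexes. The ratio of mean levels over both sexes ran from 1.63 for B2m to 4.92 for Cd74, and from 1.41 to 3.57 for the same genes without zebularine female replicate 3. Il1b was near the limit of detection and overlapped. Levels are in RPKM, the authors' read number per kilobase of the gene, set against each library's depth. Of the 6 genes, 4 (Aif1, Itgam, Cd74 and B2m) had at least 0.5 RPKM in all 12 libraries and entered the limma fit over 16310 genes, while Ptprc and Il1b were under its filter on low values. All 6 treated libraries exceeded all 6 vehicle libraries for 4 of these 4 genes and for 1.06% of the genes tested, and the weaker condition of no overlap within each sex was met by the same 4 genes and by 1.43% of those tested. In bulk tissue, more cells of a type and more RNA per cell cannot be told apart.

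**Figure D1:**
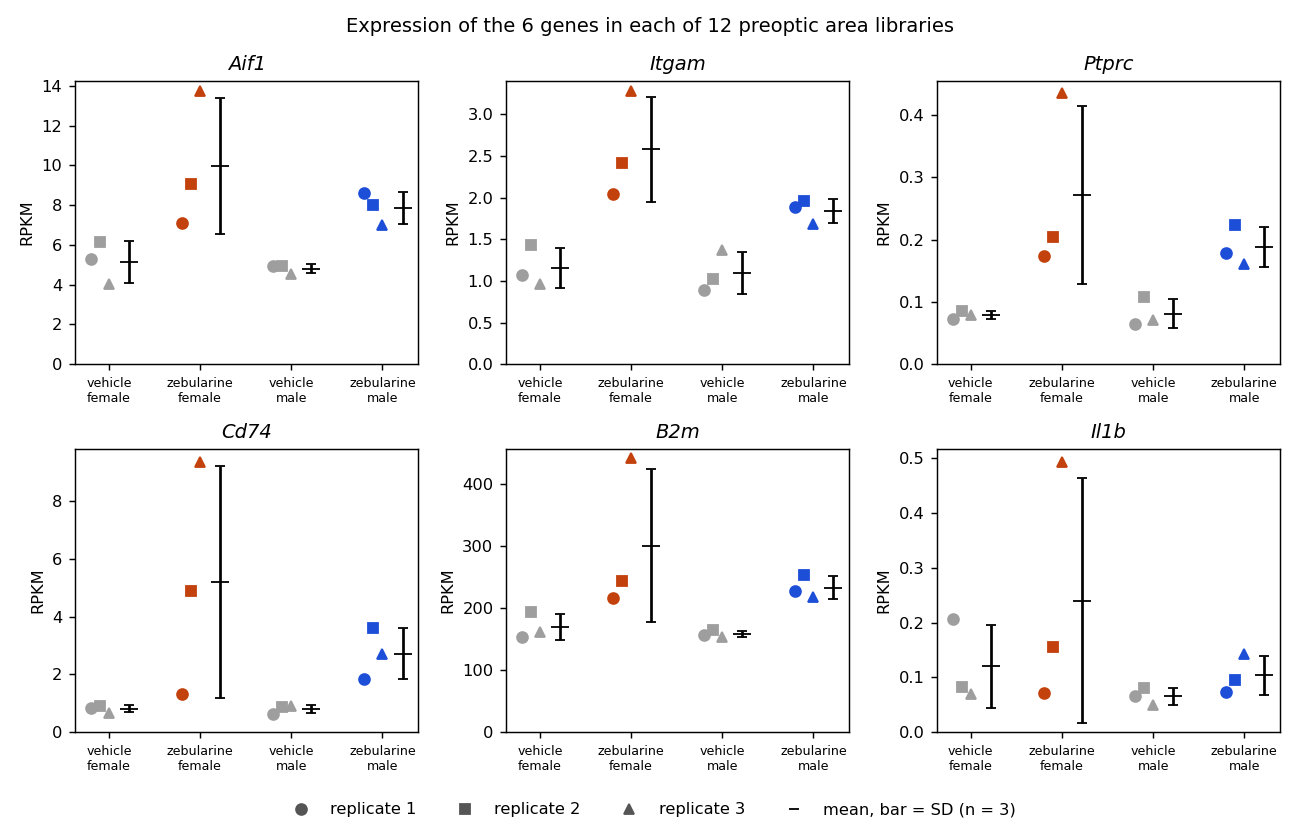
RPKM (vertical axis, linear, from 0) of each gene in each library by group, with grey points for vehicle, orange for zebularine females and blue for zebularine males. The horizontal mark is the mean and the bar the SD of 3 libraries. In 5 panels every treated point lies above every vehicle point, and in the Il1b panel they overlap.

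The microglial gene Aif1 stood at 5.31, 6.14 and 4.04 RPKM in vehicle females and 7.12, 9.07 and 13.8 RPKM in zebularine females. In males it stood at 4.95, 4.95 and 4.54 RPKM under vehicle and 8.59, 7.998 and 6.99 RPKM under zebularine. The lowest treated library thus exceeded the highest vehicle library, a vehicle female, and the vehicle libraries of both sexes shared a narrow range. Mean levels were 5.16 ± 1.06 and 9.98 ± 3.41 RPKM in females and 4.81 ± 0.239 and 7.86 ± 0.810 RPKM in males (SD, n = 3). Over both sexes the log2 change was 0.75 ± 0.14 (SE), with a limma unadjusted p of 0.000263, and it did not pass after adjustment over all genes (limma adjusted p = 0.0614).

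Itgam, the receptor chain of the same cells, was lower in level and showed the same separation. Its values were 1.07, 1.43 and 0.966 RPKM in vehicle females and 2.04, 2.42 and 3.28 RPKM in zebularine females. In males they were 0.893, 1.02 and 1.37 RPKM under vehicle and 1.89, 1.95 and 1.68 RPKM under zebularine. Within a sex, the closest approach was in males, where vehicle replicate 3 lay nearest to zebularine replicate 3, without overlap. Itgam rose by 0.72 ± 0.12 (SE) on the log2(RPKM + 0.5) scale over both sexes (limma adjusted p = 0.0376), ranking 50 of 16310 genes by p. It was the 1 gene of the 4 to pass in this comparison, in which 0.399% of all tested genes passed in the upward direction.

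All 4 tested genes had an unadjusted limma p under 0.05 in the upward direction in this comparison, against 4.78% of all genes. Their median log2 change was 0.74, beside 0.01 over all genes tested, and Aif1, Cd74 and B2m ranked 70, 107 and 124 of 16310 by p. Which genes passed depended on the libraries used. Without zebularine female replicate 3, Aif1, Itgam and B2m passed (limma adjusted p = 0.0395, 0.0431 and 0.0145), and without zebularine female replicate 1 all 4 did. In these fits 83 and 112 of the 16310 genes passed upward, against 65 with all libraries. Leaving out any of the other 10 libraries left 0 of the 4 past the threshold, and so did the replicate block, where the limma adjusted p of Itgam was 0.0897. There from 11 to 35 genes passed upward without 1 library, and 9 with the block. With limma-voom on the recovered reads, Aif1 and Itgam passed (adjusted p = 0.0487 and 0.0171), 2 of the 4, against 0.503% of genes in the upward direction. The log2 changes moved less than the calls: without 1 library they ran from 0.64 to 0.79 for Itgam and from 0.63 to 0.86 for Aif1.

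**Figure D2:**
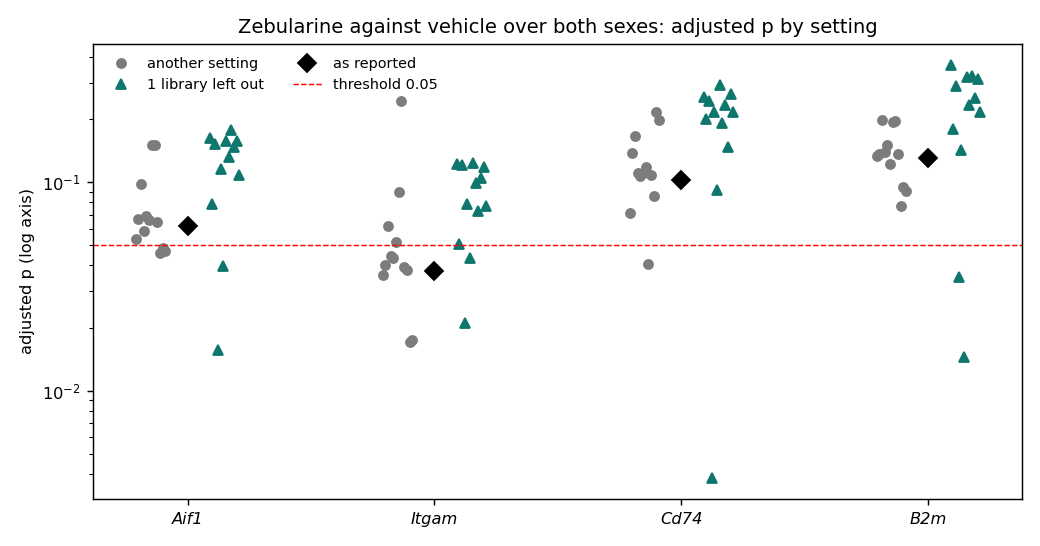
Limma adjusted p (vertical axis, log scale) of the zebularine effect over both sexes for the 4 tested genes, as reported (diamond), under another setting (grey circles, left) and with 1 library left out (green triangles, right). The dashed line is the threshold of 0.05, and the reported value lies under it for Itgam, at 0.0376, and above it for the other genes.

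Ptprc, which marks leukocytes as a whole, was listed at low RPKM in every library. Its gene model, recovered from the steps of the values, is 29124 bases long, longer than 99.6% of the 23427 models, and a long model gives few RPKM per read. The reads behind it were not few, from 43 to 271 per library. Vehicle females stood at 0.0729, 0.0848 and 0.0796 RPKM and zebularine females at 0.174, 0.205 and 0.435 RPKM. Vehicle males stood at 0.0642, 0.108 and 0.0711 RPKM and zebularine males at 0.178, 0.223 and 0.162 RPKM. No treated library came down to the vehicle range in either sex. The mean difference of 0.149 RPKM gave p = 0.005 in a two-sided exact permutation of treatment within sex, the smallest value that 400 arrangements allow. Without zebularine female replicate 3 the difference was 0.108 RPKM, again at the smallest p that the exact test allows (0.005 with 200 arrangements), so these p-values do not tell the sizes apart. In limma-voom on the recovered reads with a filter on reads in place of RPKM, a test chosen after seeing the data, Ptprc rose by 1.42 ± 0.25 (SE) on the log2 scale (adjusted p = 0.0222). Aif1 and Itgam also passed there (adjusted p = 0.0468 and 0.0176), 3 of the 5 genes tested, where 0.58% of all genes passed upward.

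Cd74, the MHC class II chaperone, varied more between treated libraries of a group than the other 3 tested genes did. Vehicle libraries were alike, at 0.851, 0.898 and 0.664 RPKM in females and 0.638, 0.878 and 0.905 RPKM in males. Zebularine females stood at 1.33, 4.90 and 9.37 RPKM and zebularine males at 1.85, 3.61 and 2.70 RPKM. The highest zebularine female library was 7.07 times the lowest, while the 3 vehicle females lay within 1.35-fold of each other. Mean and spread were both higher under zebularine: females averaged 0.804 ± 0.124 RPKM under vehicle and 5.20 ± 4.03 RPKM treated (3.11 RPKM over 2 libraries without replicate 3), and males 0.807 ± 0.147 and 2.72 ± 0.879 RPKM (SD, n = 3). The log2 change over both sexes, 1.55 ± 0.33 (SE), was the largest of the 4 and did not pass (limma adjusted p = 0.102). It was 1.27 without zebularine female replicate 3 (limma adjusted p = 0.0922) and 1.88 without zebularine female replicate 1, the lowest treated library, where it passed (limma adjusted p = 0.00381).

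B2m, the MHC class I light chain, was the most abundant of the 6 genes per length, above 98.7% of tested genes by mean RPKM. Its values were 153, 193 and 162 RPKM in vehicle females and 216, 244 and 442 RPKM in zebularine females. In males they were 156, 164 and 154 RPKM under vehicle and 228, 253 and 218 RPKM under zebularine. Male libraries were tight within each treatment, and in females zebularine replicate 3 was far above the others. The log2 change over both sexes was 0.66 ± 0.15 (SE, limma adjusted p = 0.130). Without that library the change was smaller, 0.50 ± 0.07 (SE), and passed (limma adjusted p = 0.0145).

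Il1b, the cytokine, rested on 2 to 14 reads per library. It was listed at 0.207, 0.0832 and 0.0698 RPKM in vehicle females and 0.0707, 0.156 and 0.493 RPKM in zebularine females. In males it was listed at 0.0654, 0.0814 and 0.0503 RPKM under vehicle and 0.0741, 0.0949 and 0.143 RPKM under zebularine. At this gene's length 3 reads are worth from 0.0741 to 0.142 RPKM, so that most values lay at or near the floor and the highest were zebularine female replicate 3, with 14 reads, and vehicle female replicate 1, with 7. The treated minus vehicle difference, 0.0790 RPKM, was not detectable at this depth (two-sided exact permutation within sex, p = 0.275), and was 0.0158 RPKM without that library (p = 0.640).

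Per length, the order of mean levels over all libraries was B2m, Aif1, Cd74, Itgam, Ptprc and Il1b, at 216, 6.95, 2.38, 1.67, 0.155 and 0.132 RPKM. Under vehicle Itgam stood above Cd74, at 1.13 ± 0.222 against 0.806 ± 0.122 RPKM (SD, n = 6), and overlapped only through its lowest male library. Under zebularine the order was turned, at 2.21 ± 0.577 for Itgam and 3.96 ± 2.94 RPKM for Cd74 (SD, n = 6), with wide overlap. Without zebularine female replicate 3 these means were 2.00 ± 0.272 and 2.88 ± 1.42 RPKM (SD, n = 5). Ptprc and Il1b did not separate under vehicle, at 0.0800 ± 0.0153 and 0.0928 ± 0.0572 RPKM (SD, n = 6). Their support differs: over all libraries Ptprc had 43 to 271 reads on a 29124-base model, and Il1b 2 to 14 reads on a 1329-base model.

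**Figure D3:**
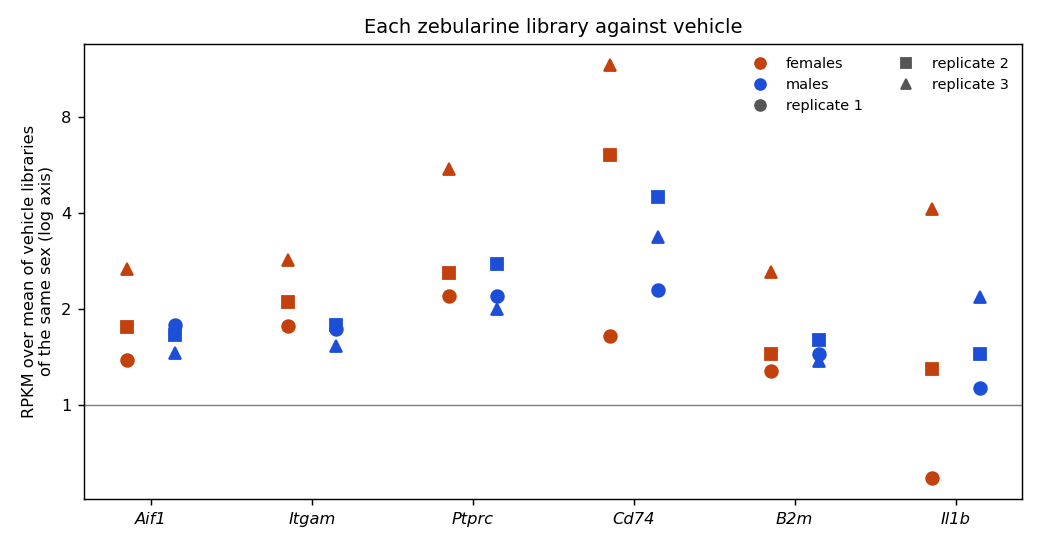
Each zebularine library's RPKM divided by the mean of the 3 vehicle libraries of its sex (vertical axis, log scale, line at 1), for females in orange and males in blue, with the symbol giving the replicate. Ratios run from 1.28 to 2.84 for Aif1, Itgam and B2m, from 2.00 to 5.50 for Ptprc and from 1.65 to 11.7 for Cd74, and those of Il1b lie on both sides of 1.

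Within females the zebularine log2 changes were 0.86 ± 0.20 for Aif1, 0.89 ± 0.18 for Itgam, 1.82 ± 0.47 for Cd74 and 0.76 ± 0.21 for B2m (SE). None of the 4 passed by limma (adjusted p = 0.220, 0.155, 0.296 and 0.372), and 0.0429% of all genes did. All 4 had an unadjusted limma p under 0.05 in the upward direction, against 4.03% of genes, and showed no overlap in females, against 5.87%. The female changes were smaller without zebularine female replicate 3, at 0.61 for Aif1, 0.73 for Itgam, 1.27 for Cd74 and 0.44 for B2m, and none passed (limma adjusted p = 0.456, 0.344, 0.726 and 0.344). Cd74 passed without zebularine female replicate 1, with a change of 2.49 (limma adjusted p = 0.0113), and the other 3 did not. In that fit 55 of 16310 genes passed upward in females.

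Within males the changes were 0.65 ± 0.20 for Aif1, 0.56 ± 0.18 for Itgam, 1.27 ± 0.47 for Cd74 and 0.55 ± 0.21 for B2m (SE). None passed by limma (adjusted p = 0.655 for each), in a comparison where 0% of genes did. All 4 again had an unadjusted limma p under 0.05 upward, against 4.14% of genes, and did not overlap, against 8.36%. The former count was 2 without zebularine male replicate 2, and 3 without vehicle male replicate 1, without vehicle male replicate 3 or with the number in the file names as a block. Over all genes the same upward count in these fits was, in that order, 357, 478, 350 and 249 of 16310. The male libraries do not include the one that stood apart, and the 3 treated males were higher than the 3 vehicle males for Aif1, Itgam, Ptprc, Cd74 and B2m.

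Whether the response differed by sex was tested directly. The male minus female difference of the zebularine effect was -0.21 (95% interval from -0.84 to 0.42) for Aif1, -0.32 (-0.87 to 0.22) for Itgam, -0.55 (-2.01 to 0.90) for Cd74 and -0.21 (-0.86 to 0.45) for B2m on the log2 scale. None of the 4 passed by limma (adjusted p = 0.976 for each), 0% of genes did, and 0 of the 4 had an unadjusted p under 0.05 against 4.05% of genes. That last count was 1 without zebularine female replicate 1 and 3 with the number in the file names as a block, with 0 past the adjusted threshold in both. In these fits 809 and 639 of 16310 genes had an unadjusted limma p under 0.05. The female point estimates were larger for all 4 genes. Without zebularine female replicate 3 the difference was 0.04 for Aif1, -0.17 for Itgam, -0.00097 for Cd74 and 0.11 for B2m, so that the larger female estimates of Aif1, Cd74 and B2m rested on that library. Without zebularine female replicate 1 the difference of Cd74 was -1.22, and it did not pass either (limma unadjusted p = 0.00844, adjusted p = 0.923). The intervals leave room for sex differences of the size of the effect itself.

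**Figure D4:**
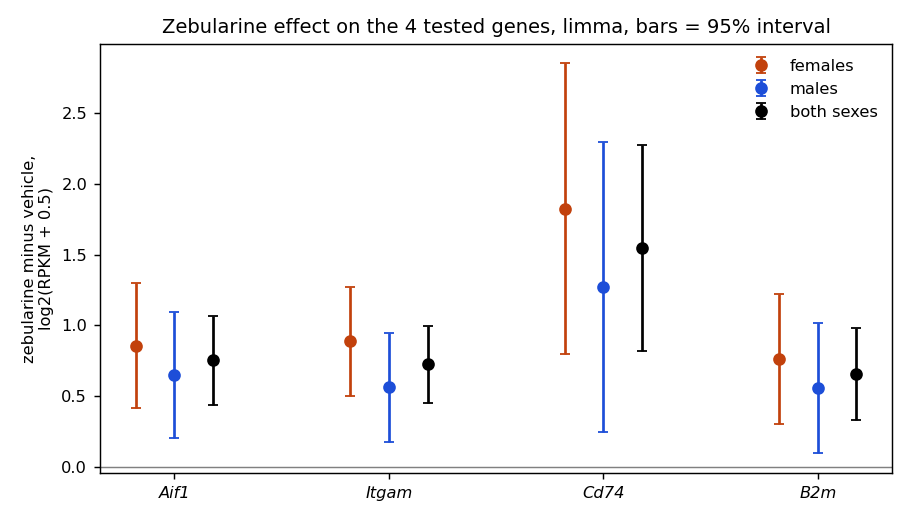
Zebularine minus vehicle difference on the log2(RPKM + 0.5) scale (vertical axis) with its 95% interval from limma, for the 4 tested genes in females, males and over both sexes. All intervals lie above 0, before any adjustment for the number of genes tested, and the female and male intervals overlap for each gene.

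Under vehicle, male and female libraries overlapped in all 6 genes. The male minus female log2 difference under vehicle was -0.07 ± 0.20 for Aif1, -0.05 ± 0.18 for Itgam, 0.0012 ± 0.47 for Cd74 and -0.09 ± 0.21 for B2m (SE), and 0 of the 4 passed by limma (adjusted p = 1.00 for each), where 0.0123% of genes did. None of the 4 had an unadjusted limma p under 0.05, against 2.08% of genes. The 95% interval for Aif1 ran from -0.52 to 0.37, so a sex difference within that range is not excluded by these libraries. Under zebularine the differences were -0.28, -0.38, -0.55 and -0.30 in the same order of genes, and 0 of the 4 passed (limma adjusted p = 0.630, 0.461, 0.686 and 0.623) against 0.0307% of genes, nor had any an unadjusted p under 0.05, against 11.1% of genes. That count of 0 moved to 4 of 4 without zebularine female replicate 1, and to 4 of 4 with the number in the file names as a block, all lower in males, with 0 past the adjusted threshold in both. In these fits 1826 and 1558 of 16310 genes had an unadjusted limma p under 0.05. The count for the 4 genes was 0 of 4 without zebularine female replicate 3, at differences from -0.22 for Itgam to 0.018 for B2m. Over both treatments 0 of the 4 passed by limma (smallest adjusted p = 0.702, for Itgam), against 0.0245% of genes, and 0 of the 4 had an unadjusted p under 0.05 against 7.3% of genes, a count that was 3 without zebularine female replicate 1. In that fit 1378 of 16310 genes had an unadjusted limma p under 0.05.

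Zebularine females were also set against vehicle males, a comparison that shares its libraries with those above. Log2 differences were 0.93 ± 0.20 for Aif1, 0.94 ± 0.18 for Itgam, 1.82 ± 0.47 for Cd74 and 0.85 ± 0.21 for B2m (SE), close to the change within females. None of the 4 passed by limma (adjusted p = 0.133, 0.0930, 0.239 and 0.201), where 0.11% of genes did, and all 4 had an unadjusted p under 0.05 upward against 5.48% of genes. The differences without zebularine female replicate 3 were 0.69 for Aif1, 0.78 for Itgam, 1.27 for Cd74 and 0.54 for B2m, and none passed (limma adjusted p = 0.243, 0.188, 0.591 and 0.121). Aif1, Cd74 and Itgam passed without zebularine female replicate 1 (limma adjusted p = 0.0309, 0.00566 and 0.0356). In that fit 105 of 16310 genes passed upward, against 18 with all libraries.

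The file names carry a number after the group code, whose meaning the labels do not give. Where a vehicle and a zebularine library of the same sex share it, in 4 pairs, the treated library was higher in 4 of 4 pairs for Aif1, Itgam, Ptprc, Cd74 and B2m. That count follows from the separation of all treated from all vehicle libraries given above, and adds nothing to it. The ratios within these pairs ran from 1.54 to 2.24 for Aif1, from 1.22 to 2.29 for Itgam, from 1.65 to 5.13 for Ptprc, from 2.11 to 10.4 for Cd74 and from 1.39 to 2.29 for B2m. Il1b was higher in 2 of the 4 pairs.

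Relations between the genes were also read across libraries. Over all 12 libraries 15 of 15 pairs of genes passed by r (permutation test, adjusted over the pairs), but treated and vehicle libraries form separate clusters. By rho, Il1b with Itgam, Ptprc, Cd74 and B2m did not pass (adjusted permutation p from 0.0577 to 0.0946). Without zebularine female replicate 3, 10 of 15 passed by r, and no pair with Il1b did (r from 0.14 to 0.39). On deviations from group means 14 of 15 passed by r in the same test, though deviations within a group are not independent. By rho, Ptprc with B2m and Itgam with Cd74 passed there (adjusted permutation p = 0.0222 and 0.0298), and every other pair had at least 0.0505. Without the 2 libraries farthest from the median of the first gene, r of the deviations ran from -0.13 for B2m with Il1b to 0.78 for Ptprc with B2m. Relations were also taken within treatments, over the same 15 pairs. Among the 6 zebularine libraries, r lay between 0.81 and 1.00 for all 15 pairs, with a median of 0.90, but 1 of the 15 passed after adjustment over the pairs by r and 0 by rho (exact permutation tests). The tightest was Ptprc with B2m (r = 0.998, rho = 0.94, exact permutation p = 0.00278 and 0.0167, adjusted over the 15 pairs 0.0417 and 0.125), and r was 0.93 without the 2 libraries farthest from the median of Ptprc. Aif1 with Itgam had r = 0.93 and rho = 0.77 (exact permutation p = 0.0181 and 0.103, adjusted over the pairs 0.0506 and 0.204), and r was 0.44 without the 2 libraries farthest from the median of Aif1. Each r of zebularine libraries without 2 of the 6 rests on the few that remain, and is given as a description. For Aif1 with Cd74, r was 0.85 and rho 0.71 (exact permutation p = 0.0319 and 0.136, adjusted 0.0542 and 0.204), and r was 0.71 without 2 libraries. For 3 pairs r turned negative without the 2 farthest libraries, to -0.41 for Itgam with Cd74, -0.90 for Itgam with Il1b and -0.11 for B2m with Il1b. Among the 6 vehicle libraries r lay between -0.19 and 0.78, and 0 of the 15 pairs passed by the exact permutation test. With 6 libraries per treatment these tests have little power, and a pair that did not pass may still be related. All libraries share their tissue and normalization, and the common high point among treated libraries is zebularine female replicate 3.

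**Figure D5:**
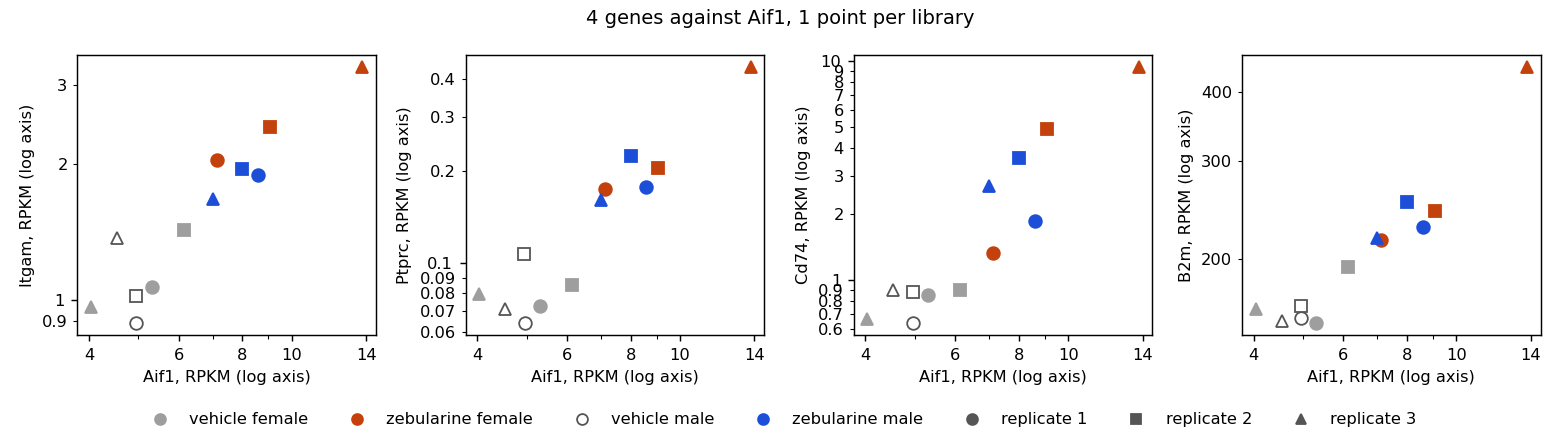
Itgam, Ptprc, Cd74 and B2m against Aif1, in RPKM on log axes, with 1 point per library, groups by colour and replicates by symbol. Vehicle libraries form a cluster at the lower left of each panel, and zebularine female replicate 3 is the highest point in each, at 13.8 RPKM for Aif1.

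Levels were also set against Aif1 within each library. The ratio of Itgam to Aif1 was 0.225 ± 0.0203 in vehicle and 0.264 ± 0.0243 in zebularine females, and 0.230 ± 0.0644 and 0.235 ± 0.0130 in males (SD, n = 3), with overlap in each sex. B2m to Aif1 was 33.5 ± 5.89 and 29.8 ± 2.66 in females and 32.9 ± 1.23 and 29.8 ± 2.80 in males (SD, n = 3), and overlapped as well. Cd74 to Aif1 ran from 0.146 to 0.164 in vehicle and from 0.186 to 0.681 in zebularine females, and from 0.129 to 0.199 in vehicle and from 0.216 to 0.451 in zebularine males, without overlap within a sex. Ptprc to Aif1 ran from 0.0137 to 0.0197 and from 0.0226 to 0.0316 in females without overlap, and from 0.0129 to 0.0218 and from 0.0207 to 0.0279 in males with overlap. These ratios were chosen after the values were seen and are given without a test.

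The genes whose pattern over the 12 libraries was most like that of Aif1, among 14367 genes with a mean of at least 1 RPKM, were ENSRNOG00000008465 (r = 0.98, rho = 0.97) and ENSRNOG00000023708 (r = 0.98, rho = 0.94). Without zebularine female replicate 3, r with Aif1 was 0.97 and 0.96. ENSRNOG00000008465 stood at 17.1 ± 1.31 RPKM in vehicle and 29.5 ± 9.41 RPKM in zebularine females, and at 16.3 ± 1.18 and 25.3 ± 3.02 RPKM in males (SD, n = 3). ENSRNOG00000023708 stood at 11.6 ± 1.25 and 24.5 ± 9.70 RPKM in females and 10.98 ± 0.587 and 19.8 ± 2.19 RPKM in males (SD, n = 3). Those most like Cd74 were ENSRNOG00000032844 (r = 0.98, rho = 0.84, and r = 0.97 without zebularine female replicate 3) and ENSRNOG00000005825 (r = 0.96, rho = 0.86, and r = 0.94 without it). Both spanned a wide range as Cd74 did: ENSRNOG00000032844 stood at 0.222 ± 0.0756 RPKM in vehicle and 3.60 ± 3.44 RPKM in zebularine females, and at 0.131 ± 0.0384 and 1.26 ± 0.759 RPKM in males (SD, n = 3). It passed the filter on low values and the mean of 1 RPKM only through its zebularine libraries. Its place beside Cd74 is thus in part set by that selection. These correlations span treated and vehicle libraries together, so a gene that differs by treatment can score high. They pick the extreme of many genes and are given as a description, with no p.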

How the data were processed

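RNA-seq libraries from 12 samples were analysed. The authors deposited RPKM per Ensembl gene, 1 file per library. TopHat is named in the submitters' processing notes. Not given in the sources used here were its version, the counter, genome build, annotation and strand setting, so reads of overlapping genes may be shared. Values were whole multiples of 1 read (within 1e-05 of a read) for 23427 of the 23427 genes above 0, which gave reads and model lengths. Of these, 1386 were above 0 in 1 library only, where the check cannot fail. It is also weak for other genes above 0 in few libraries. Counting error only is covered by floors of 3 reads.

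Genes reaching 0.5 RPKM in 3 or more libraries were kept, and log2(RPKM + 0.5) was fitted with limma 3.58.1 (R 4.3.3; eBayes with trend) as 4 group means, with 8 two-sided comparisons, p-values adjusted by Benjamini-Hochberg across the genes kept, and 0.05 as threshold. Genes under the filter had an exact permutation of treatment within sex. The fit was tested on data simulated with the same dispersion for all genes and no outlying library, so that test does not cover the spread of these libraries. Alternatives covered pseudocounts, filters, scaling, blocks, weights, limma-voom on reads and each library left out. All 6 genes are named, with the 2 genes most correlated with Aif1 and with Cd74. The genes, lists and tests were chosen with earlier results of these data known. Lists of other marker genes fixed by symbol were not analysed here, as identifiers had no symbols. Other steps ran in Python 3.11.15 (numpy 2.4.6, pandas 2.3.3) and figures in matplotlib 3.10.9.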

Additional observations from a re-analysis of the deposited data

How the results depend on the processing

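The 4 tested genes kept their upward direction under zebularine over both sexes in all 24 alternatives, each with an unadjusted limma p under 0.05, and the number past the adjusted threshold, 1 as reported, moved. It was 0 with no filter on low values, with quantile normalization and with the replicate block, 2 with array weights and with limma-voom on recovered reads, 3 with limma-voom and a filter of 10 reads (added after seeing the data), and from 0 to 4 without 1 library. With the number in the file names as a block it was 1, and the gene was Cd74 in place of Itgam. Over all genes, 85 passed upward with array weights, 6 with that block and from 11 to 112 without 1 library. In females the number of these genes was from 0 to 1 without 1 library, where from 0 to 55 of all genes passed upward. For zebularine females against vehicle males it was 1 with limma-voom under either filter and from 0 to 3 without 1 library. Over all genes, 33 and 37 passed upward there with limma-voom, and from 7 to 105 without 1 library. The cause was not tested. The labels do not say what the replicate numbers stand for. Deviations of same-numbered libraries correlated from -0.30 to 0.30 over 18 pairs, 5 of them above 0.1, and whether they share handling was not tested. The replicate block changed no call of these genes other than that of Itgam over both sexes. In that comparison the calls over all genes went from 66 to 9. Sex differences near 0 changed sign without passing. Under vehicle, without 1 library they ran from -0.23 to 0.049 for Aif1, from -0.16 to 0.0062 for B2m, from -0.17 to 0.062 for Itgam and from -0.079 to 0.098 for Cd74; with the block on the file name number they were 0.017 for Aif1, 0.050 for B2m and 0.13 for Itgam, and with array weights -0.014 for Cd74. The sex difference of the zebularine effect ran from -0.41 to 0.040 for Aif1 and from -0.41 to 0.11 for B2m without 1 library, that under zebularine from -0.50 to 0.018 for B2m and from -1.22 to 0.00020 for Cd74, and that of Cd74 over both treatments from -0.61 to 0.00068. For the differences in the sentence above, the upper ends came without zebularine female replicate 3. Depth limits Il1b, at 2 to 14 reads.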
